A study of Mus musculus with 10 samples.

Results

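Trophectoderm transcription factors are the DNA-binding proteins and 1 coactivator known from the outer layer of the mouse blastocyst, which gives rise to the placenta. The group described here was Cdx2, Gata3, Tfap2a, Tfap2c, Tead4, Eomes, Elf5, Yap1, Gata2 and Hand1, 10 of 18193 genes that the platform annotation names by a single symbol. They were found by gene symbol among 45101 probe sets, which gave 21 probe sets, and the probe set that stands for a gene was selected on its measured mean over all 10 samples (the brightest), without use of the group labels. That mean covers both groups, so a probe set bright in 1 group only can be chosen, as for Elf5. The list itself was proposed with earlier results of these data known, so its counts are descriptions and not independent evidence of a direction. Fully grown germinal vesicle oocytes came from RNAi-transgenic mice (6 samples) and non-transgenic mice (4 samples). The transgene makes RNA interference against basonuclin (Bnc1), a zinc finger protein of germ cells and keratinocytes, and acts only in oocytes. Each sample held about 50 oocytes of 1 mouse on 1 array, and the sources used here give no strain, age or promoter of the transgene. Replicate numbers are those of the labels, 4, 5, 6, 11, 12 and 13 for RNAi-transgenic and 1, 2, 7 and 8 for non-transgenic samples.

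In the mouse embryo the first lineage choice separates trophectoderm from the inner cell mass. In outer cells the Hippo kinase pathway is low, so the coactivator Yap1 stays in the nucleus with the TEA-domain factor Tead4, and together they raise Cdx2, a caudal-type homeobox factor needed to maintain the trophectoderm. Gata3 acts beside Cdx2, the AP-2 factors Tfap2a and Tfap2c bind many trophectoderm genes, and Elf5, an ETS-domain factor, and Eomes, a T-box factor, sustain trophoblast stem cells with Cdx2. Gata2 is a further zinc finger factor of trophoblast, and Hand1, a basic helix-loop-helix factor, promotes trophoblast giant cells. Several of these proteins are first needed only after fertilisation.

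Promoter windows of 250 bases before the annotated start were read from RefSeq (build GRCm38.p6) for the 7 of 10 genes that matched by symbol, and Tfap2c, Tead4 and Hand1 were not matched. The 4 windows below are shown because they hold the AP-2 letters GCCNNNGGC or the TEAD letters GGAATG on either strand and belong to 3 genes that differed between the groups and to Yap1, which did not pass the test. Capitals mark these letters, sequences run 5′ to 3′ on the gene's strand, and no AP-2 match overlapped a TEAD match.
Cdx2, chr5:147307250-147307499, minus strand: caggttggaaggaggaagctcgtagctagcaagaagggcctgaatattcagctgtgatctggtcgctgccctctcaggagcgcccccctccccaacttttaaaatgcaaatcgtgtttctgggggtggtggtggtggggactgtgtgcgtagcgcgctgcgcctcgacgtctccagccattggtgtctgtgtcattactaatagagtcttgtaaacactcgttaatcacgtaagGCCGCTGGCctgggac
Gata3, chr2:9878601-9878850, minus strand: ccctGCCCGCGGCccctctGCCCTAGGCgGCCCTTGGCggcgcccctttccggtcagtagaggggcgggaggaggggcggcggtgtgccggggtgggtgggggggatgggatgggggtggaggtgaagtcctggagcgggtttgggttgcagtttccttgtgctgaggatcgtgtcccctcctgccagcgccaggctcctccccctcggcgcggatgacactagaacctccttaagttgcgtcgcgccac
Elf5, first of 2 starts, chr2:103411848-103412097, plus strand: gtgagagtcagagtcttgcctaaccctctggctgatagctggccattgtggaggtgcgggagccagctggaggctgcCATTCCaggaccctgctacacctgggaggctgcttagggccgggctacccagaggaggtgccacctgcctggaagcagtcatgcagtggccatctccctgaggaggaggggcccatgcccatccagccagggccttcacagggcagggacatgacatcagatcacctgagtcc
Yap1, chr9:8004597-8004846, minus strand: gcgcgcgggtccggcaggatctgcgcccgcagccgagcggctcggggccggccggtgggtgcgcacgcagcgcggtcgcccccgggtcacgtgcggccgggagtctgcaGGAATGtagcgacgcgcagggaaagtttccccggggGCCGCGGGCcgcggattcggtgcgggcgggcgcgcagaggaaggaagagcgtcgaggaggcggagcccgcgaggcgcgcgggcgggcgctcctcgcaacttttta
The AP-2 letters stood 16 bases before the Cdx2 start and at 3 places of the Gata3 window, 246, 231 and 221 bases before the start. The TEAD letters stood 173 bases before the first Elf5 start. The Yap1 window held both, the AP-2 letters 105 and the TEAD letters 141 bases before the start, and so did the window of the second of 2 Gata2 starts. Neither set of letters was found in the first or the second Tfap2a window, the second Elf5 window, the first Gata2 window or the Eomes window. Of all 32851 windows of this length in the table, 13.7% held the AP-2 letters and 12.6% the TEAD letters, so a match is only a description of the window.

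The arrays were alike in level. Their median intensity lay between 17.5 and 20.1, and each array had 40.1% to 40.9% of its probe sets above log2 5, the level used here as a filter (an intensity of 32). A gene was tested where it was above this level on at least 4 arrays. This filter is uneven between the groups. A gene above the level only in RNAi-transgenic samples entered with 4 of 6, and one above it only in non-transgenic samples needed all 4. Differences are log2 intensities of RNAi-transgenic minus non-transgenic samples. They come from limma with p-values adjusted over all 10590 genes tested and a threshold of 0.05. Bnc1 averaged log2 3.85 ± 0.21 in RNAi-transgenic (SD, n = 6) and 11.57 ± 0.15 in non-transgenic oocytes (SD, n = 4), with no overlap, so each sample matched its label. Of all genes tested, 18.9% were higher and 18.3% lower in RNAi-transgenic oocytes. Of 13 oocyte markers with a probe set all were tested, 1 rose (Kit by 0.78) and 2 fell (Figla by 0.54 and Dppa3 by 0.21). Without RNAi-transgenic replicate 6, 4 rose, and within the samples numbered 1 to 6 none fell. The call of Figla ended without non-transgenic replicate 2 or 7 (limma adjusted p = 0.0513 and 0.0505), and that of Dppa3 without RNAi-transgenic replicate 5 or 11 or non-transgenic replicate 1, 7 or 8 (limma adjusted p from 0.0510 to 0.0707). Zp3 and Gdf9, of the egg coat and of oocyte signalling, averaged 14.59 and 14.29 in RNAi-transgenic and 14.61 and 14.26 in non-transgenic oocytes. Other markers of the list lay further apart without passing. The differences of Zp1, Bmp15 and Nlrp5 were 0.23, 0.24 and -0.15 (limma adjusted p = 0.0820, 0.0696 and 0.0923).

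Of the 10 genes, 5 were higher in RNAi-transgenic oocytes: both AP-2 genes, Gata3, Elf5 and Cdx2. No gene of the group was lower, Yap1 and Gata2 did not pass the test, and Tead4, Eomes and Hand1 were below the filter and not tested. Among all genes tested, 18.9% were higher and 18.3% lower by the same test. In the same 5 genes every RNAi-transgenic sample was above every non-transgenic sample, which held for 14.8% of all genes tested. The median difference over all 10 genes was 0.70, against -0.04 over all 18193 genes with a probe set. No gene of the group lay near this median. The 5 higher genes differed by 1.38 or more and the others by -0.07 to 0.01, so the median describes no shift of the whole group. Elf5 passed the filter only through RNAi-transgenic samples, so it had to differ once it was tested, and Cdx2 passed through 6 of 6 RNAi-transgenic and 1 of 4 non-transgenic samples. In such whole-sample RNA, a larger number of cells with a transcript and more transcript per cell cannot be told apart.

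**Figure D1:**
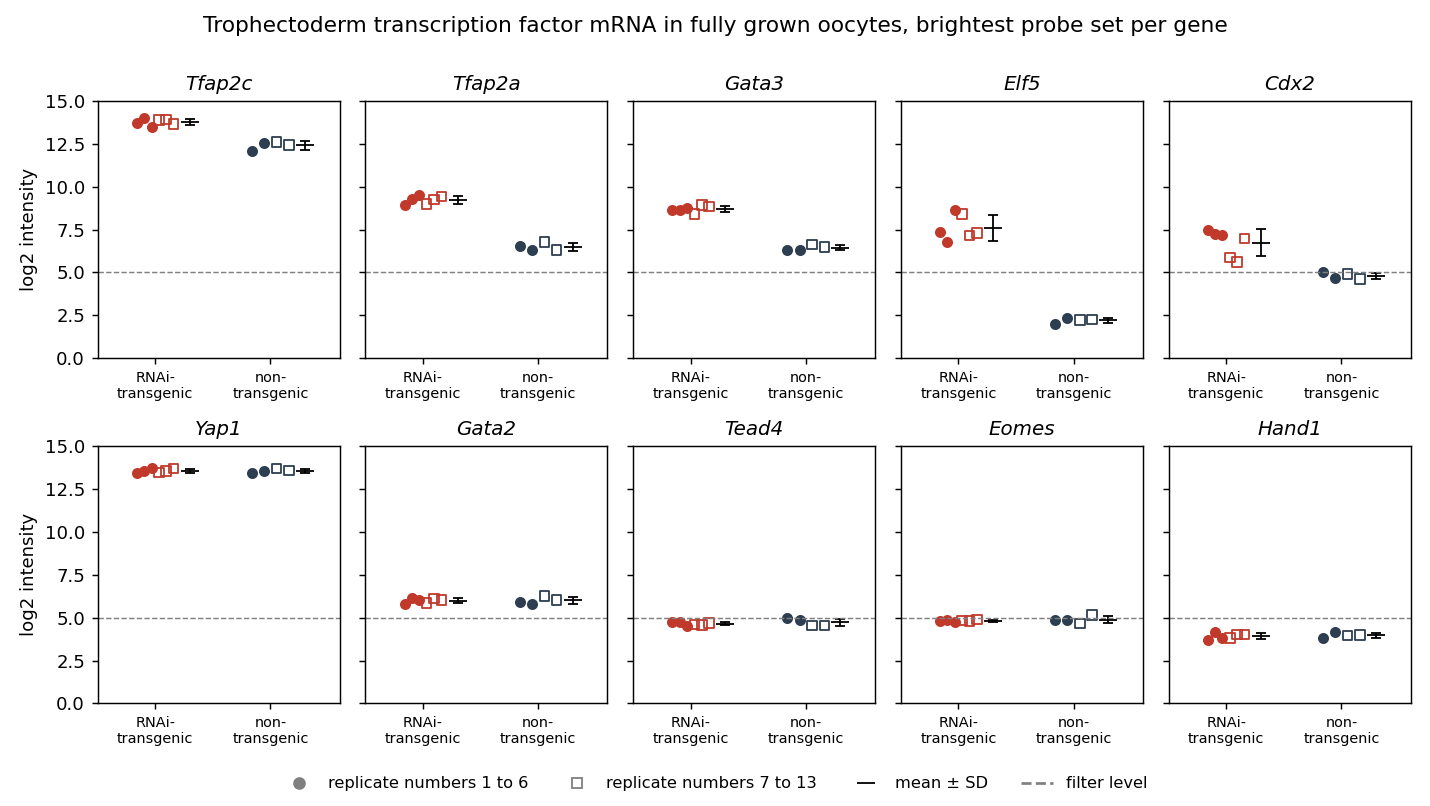
Log2 intensity (vertical axis) of the brightest probe set of each of the 10 genes, one point per sample, in RNAi-transgenic (red, left, n = 6) and non-transgenic oocytes (dark, right, n = 4), with mean ± SD beside the points, shapes for the ranges of replicate numbers and the filter level of log2 5 as a dashed line. In the upper row the groups do not overlap, and in the lower row they do.

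Tfap2c encodes AP-2 gamma, which is needed in trophoblast. Its brightest probe set was at log2 13.70, 14.01, 13.50, 13.89, 13.93 and 13.66 in RNAi-transgenic replicates 4, 5, 6, 11, 12 and 13, against 12.06, 12.53, 12.59 and 12.44 in non-transgenic replicates 1, 2, 7 and 8. The mRNA was thus far above the filter level in all samples of both groups. It rose by 1.38 (SE 0.12), 2.60-fold (limma adjusted p = 7.29e-06). The other 2 probe sets, 1418147_at and 1448977_at, were higher by 1.94 and 1.92 in the limma fit over all probe sets (adjusted p = 1.43e-06 and 0.000897), where 17.0% of 18582 probe sets were higher. The brightest probe set, 1436392_s_at, thus gave the smallest of the 3 differences, and by its suffix its probes can match more than 1 transcript.

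Tfap2a encodes AP-2 alpha, which binds the same DNA letters as AP-2 gamma. It was at log2 8.94, 9.26, 9.49, 8.98, 9.26 and 9.42 in RNAi-transgenic replicates 4, 5, 6, 11, 12 and 13, against 6.55, 6.28, 6.78 and 6.31 in non-transgenic replicates 1, 2, 7 and 8. The RNAi-transgenic values lay between 8.94 and 9.49, and the groups stood apart. Tfap2a rose by 2.75 (SE 0.14), 6.71-fold (limma adjusted p = 1.12e-07). Probe set 1426048_s_at averaged 6.86 ± 0.30 in RNAi-transgenic oocytes (SD, n = 6) and was below log2 5 in all 4 non-transgenic samples, at least 3.62-fold higher against that level (limma adjusted p = 1.14e-06). Probe set 1421995_at did not pass, at 5.93 ± 0.41 in RNAi-transgenic and 5.58 ± 0.41 in non-transgenic oocytes (SD, n = 6 and 4, limma adjusted p = 0.295), so 2 of the 3 probe sets of this gene passed. Of these, 1426048_s_at entered the test through RNAi-transgenic samples alone, so its pass is no independent support. With the mean of its probe sets in place of the brightest, the Tfap2a difference was 2.03.

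Gata3 encodes a zinc finger factor that binds GATA letters and has 1 probe set here. It was at log2 8.61, 8.63, 8.73, 8.40, 8.92 and 8.84 in RNAi-transgenic replicates 4, 5, 6, 11, 12 and 13, against 6.33, 6.32, 6.63 and 6.47 in non-transgenic replicates 1, 2, 7 and 8. The lowest RNAi-transgenic sample, replicate 11, lay well above the highest non-transgenic sample, replicate 7. Gata3 rose by 2.25 (SE 0.12), 4.75-fold (limma adjusted p = 1.07e-07). Its paralog Gata2 did not pass the test. It was at 5.80, 6.14, 6.02, 5.86, 6.12 and 6.03 in RNAi-transgenic replicates 4, 5, 6, 11, 12 and 13, against 5.92, 5.81, 6.25 and 6.03 in non-transgenic replicates 1, 2, 7 and 8, and the groups overlapped. The Gata2 difference was -0.01 with a 95% interval of -0.24 to 0.23 (limma adjusted p = 0.972), and its other probe set was below the filter on all arrays.

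Elf5 encodes an ETS-domain factor known from trophoblast stem cells and mammary epithelium. It was at log2 7.35, 6.75, 8.62, 8.42, 7.16 and 7.29 in RNAi-transgenic replicates 4, 5, 6, 11, 12 and 13, against 2.00, 2.31, 2.22 and 2.25 in non-transgenic replicates 1, 2, 7 and 8. Every non-transgenic sample was below the filter level, and replicates 6 and 11 were the highest RNAi-transgenic samples. Elf5 was at least 6.05-fold higher in RNAi-transgenic oocytes when set against that level (limma adjusted p = 4.08e-07, which adds no support, since the gene entered the test through RNAi-transgenic samples alone). The fitted difference was 5.41 (SE 0.33), but its size rests on values under the level. A second probe set, 1419556_at, was below the level on all arrays, at 2.73 ± 0.17 in RNAi-transgenic and 2.67 ± 0.05 in non-transgenic oocytes (SD, n = 6 and 4). The rise of Elf5 therefore rests on 1 of its 2 probe sets, and the sources used here do not place them on its transcripts. In non-transgenic oocytes the probe set used was the dimmer (2.19 against 2.67), so it was chosen through its RNAi-transgenic values.

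Cdx2 encodes the homeobox factor that maintains the trophectoderm. It was at log2 7.48, 7.25, 7.18, 5.86, 5.62 and 6.98 in RNAi-transgenic replicates 4, 5, 6, 11, 12 and 13, against 5.01, 4.68, 4.90 and 4.62 in non-transgenic replicates 1, 2, 7 and 8. The groups did not overlap, but RNAi-transgenic replicates 11 and 12 were much lower than the other RNAi-transgenic samples, and only replicate 1 of the non-transgenic samples was above the filter level. Cdx2 was at least 3.31-fold higher against that level, with a fitted difference of 1.92 (SE 0.35, limma adjusted p = 0.00150). This p adds no independent support, since Cdx2 passed the filter mainly through RNAi-transgenic samples. Its second probe set, 1422074_at, was at 2.71 ± 0.05 in RNAi-transgenic and 2.76 ± 0.08 in non-transgenic oocytes (SD, n = 6 and 4), below the level on all arrays. Among the tested genes, Reck, Adgrd1, P2rx4, Cyb561 and Slc6a12 had the profiles most like that of Cdx2 over the 10 samples, with a root mean square distance of 0.37, 0.41, 0.42, 0.42 and 0.43 between log2 values centred on each gene's mean.

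Exact two-sided permutation tests over all 210 ways to label 6 of 10 samples gave p = 0.00476 for Tfap2c, Tfap2a and Gata3, the smallest p that this design allows, and p = 0.00952 for Cdx2. None is given for Elf5, whose groups the filter had set apart. Cdx2 passed the filter mainly through RNAi-transgenic samples, so its p adds no independent support. The order of the RNAi-transgenic samples was not shared: the highest was replicate 4 for Cdx2, replicate 5 for Tfap2c, replicate 6 for Tfap2a and Elf5, and replicate 12 for Gata3. The replicate numbers fall into a range of 1 to 6 and one of 7 to 13, which no label calls batches. Within the samples numbered 1 to 6 the Cdx2 difference was 2.46 (limma adjusted p = 0.000976), and within those numbered 7 to 13 it was 1.39 and did not pass (limma adjusted p = 0.0612). Gata3 differed by 2.33 and 2.17 in the lower and the higher range, Tfap2a by 2.81 and 2.68, and Tfap2c by 1.44 and 1.31, each past the threshold in both ranges.

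**Figure D2:**
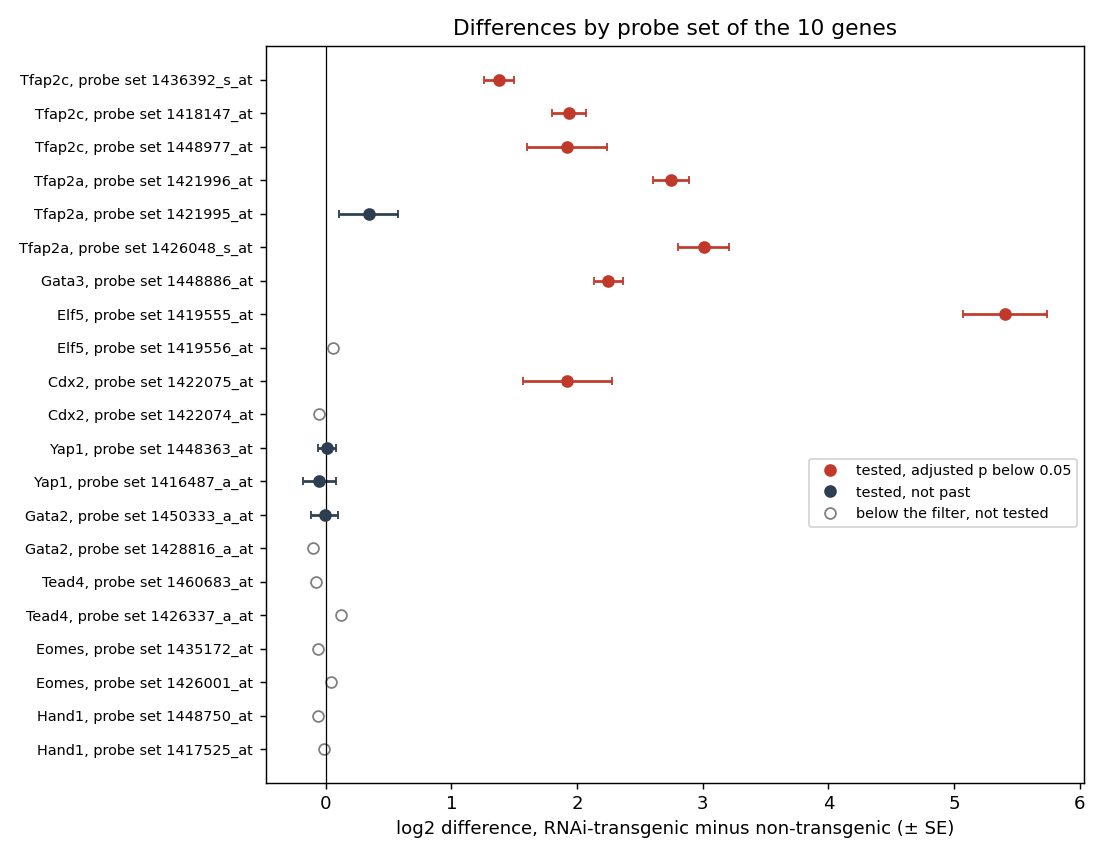
Log2 difference of RNAi-transgenic minus non-transgenic samples (horizontal axis) for all 21 probe sets of the 10 genes, with the SE of the limma fit over all probe sets as bars, in red where the adjusted p was below 0.05 and as open circles where the probe set was below the filter and not tested. Within Tfap2a, Elf5 and Cdx2 some probe sets passed and others did not pass or were not tested, while all 3 of Tfap2c passed.

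Yap1 and Tead4 act upstream of Cdx2 in the embryo. Yap1, the coactivator, was at log2 13.45, 13.54, 13.72, 13.47, 13.56 and 13.70 in RNAi-transgenic replicates 4, 5, 6, 11, 12 and 13, against 13.41, 13.54, 13.71 and 13.59 in non-transgenic replicates 1, 2, 7 and 8. The groups overlapped almost fully, and the difference was 0.01 with a 95% interval of -0.15 to 0.17 (limma adjusted p = 0.916). Its second probe set averaged 8.13 ± 0.21 in RNAi-transgenic and 8.18 ± 0.18 in non-transgenic oocytes (SD, n = 6 and 4). Tead4 stayed below log2 5 on all arrays with both probe sets, the brighter at 4.64 ± 0.09 in RNAi-transgenic and 4.72 ± 0.22 in non-transgenic oocytes.

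Eomes and Hand1 were also below the filter. The brighter Eomes probe set averaged 4.82 ± 0.05 in RNAi-transgenic and 4.88 ± 0.19 in non-transgenic oocytes, and only non-transgenic replicate 8, at 5.14, was above the level. Hand1 averaged 3.92 ± 0.17 in RNAi-transgenic and 3.98 ± 0.14 in non-transgenic oocytes, with no sample above the level. For these genes a difference under the filter level was not detectable. A dim probe set does not bound the mRNA. For Elf5 and Cdx2, 1 probe set was above the level in every RNAi-transgenic sample while the other stayed below it. Whether these probe sets detect Eomes and Hand1 mRNA well was not tested.

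Of a list of 21 paralogs of the 10 genes, 11 were below the filter and 10 were tested. Of these 5 rose, 1 fell and 4 did not pass, against 18.9% higher and 18.3% lower among all genes tested, and the median was -0.05 over all 21 against -0.04 over all genes with a probe set. Within the samples numbered 1 to 6, 3 rose and 0 fell, and without non-transgenic replicate 7, 2 fell. Elf3, an epithelial ETS factor, averaged 11.02 ± 0.20 in RNAi-transgenic and 6.39 ± 0.63 in non-transgenic oocytes (SD, n = 6 and 4), 24.8-fold higher (limma adjusted p = 1.07e-07). Tead2, a TEA-domain factor like Tead4, averaged 8.22 ± 0.11 in RNAi-transgenic oocytes (SD, n = 6), against 4.59 ± 0.74 in non-transgenic oocytes (SD, n = 4), of which 1 sample passed the level. The rise was at least 8.76-fold (limma adjusted p = 1.48e-06). Tead2 passed the filter mainly through RNAi-transgenic samples, so its place among the 5 adds no independent support. Among other TEA-domain genes, Tead1 averaged 5.65 ± 0.45 in RNAi-transgenic and 4.75 ± 0.51 in non-transgenic oocytes (SD, n = 6 and 4), with 1 non-transgenic sample above the level and overlap between the groups, at least 1.49-fold higher (limma adjusted p = 0.0211), and Tead3 was at 7.96 in RNAi-transgenic and 7.71 in non-transgenic oocytes (limma adjusted p = 0.217). Tead1 also passed the filter mainly through RNAi-transgenic samples, so its call adds no independent support. Tead1 was named after its values were seen, and its call was lost when non-transgenic replicate 1 or 2 was left out (limma adjusted p = 0.0651 and 0.0633) and within the samples numbered 1 to 6 or 7 to 13 (0.0754 and 0.115).

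The AP-2 family moved in both directions. Tfap2b rose by 1.38 (SE 0.31, limma adjusted p = 0.00480) and Tfap2e fell by 0.33 to 13.73 ± 0.08 in RNAi-transgenic oocytes, against 14.06 ± 0.12 in non-transgenic oocytes (SD, n = 6 and 4, limma adjusted p = 0.00159). Within the samples numbered 1 to 6 neither passed, with differences of 1.10 and -0.25 (limma adjusted p = 0.188 and 0.162). For Tfap2b the groups overlapped, with a lowest RNAi-transgenic value of 7.20 and a highest non-transgenic value of 7.24. Tfap2d was below the filter. Ehf, an ETS factor related to Elf5, rose by 0.56 (limma adjusted p = 0.000185), while Elf1 and Elf4 were below the filter. Cdx1 and Cdx4, the other caudal genes, were at 2.85 and 2.70 in RNAi-transgenic and 2.91 and 2.74 in non-transgenic oocytes, below the level on all arrays. Gata4 was at 7.61 in RNAi-transgenic and 7.98 in non-transgenic oocytes and did not pass (limma adjusted p = 0.134), and Gata1, Gata5 and Gata6 were below the filter.

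Of 25 genes of the Hippo pathway, which keeps Yap1 out of the nucleus when active, 22 had a probe set and 16 were tested. Of these 5 rose, 0 fell and 11 did not pass in limma, against 18.9% higher and 18.3% lower among all genes tested, and the median was 0.08 over the 22 genes. With the filter at log2 7, and within the samples numbered 1 to 6, 3 rose, and 1 fell without the filter on dim probe sets, with the mean of probe sets or without non-transgenic replicate 1. Vgll4, a cofactor that competes with Yap1 for TEA-domain factors, rose by 1.26 (SE 0.13, limma adjusted p = 2.26e-05). The kinase genes Lats1 and Lats2, which phosphorylate Yap1, rose by 0.92 and 0.79 (limma adjusted p = 0.00225 and 0.00132). Amotl2, an angiomotin that binds Yap1 at junctions, was at 6.00 ± 0.52 in RNAi-transgenic oocytes (SD, n = 6) and under the level in each non-transgenic sample, at least 2.00-fold higher (limma adjusted p = 0.000886). Amotl2 passed the filter through RNAi-transgenic samples alone, so it had to differ once it was tested, and its place among the 5 is no support. The scaffold gene Wwc1, named after its values were seen, rose by 0.56 (limma adjusted p = 0.0112). The Wwc1 call was lost within the samples numbered 1 to 6 and those numbered 7 to 13 (limma adjusted p = 0.0531 and 0.142), that of Lats2 in the lower range (0.0899) and that of Amotl2 in the higher (0.0512). Wwtr1, the paralog of Yap1, was at 6.78 in RNAi-transgenic and 6.90 in non-transgenic oocytes and did not pass (limma adjusted p = 0.575). The gene called lower without the filter was Mob1b, above the level in 0 of 6 RNAi-transgenic and 3 of 4 non-transgenic samples.

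Of 40 other genes known from trophoblast, 35 had a probe set and 22 were tested. Of these 14 rose, 2 fell and 6 did not pass, against 18.9% higher and 18.3% lower among all genes tested, and the median over the 35 genes was 0.19. Without any 1 sample 11 to 14 rose, and within the samples numbered 7 to 13, 9 rose. This list was also drawn up with earlier results of these data known. Lgals3, a galectin, averaged 10.75 ± 0.27 in RNAi-transgenic and 4.55 ± 0.48 in non-transgenic oocytes (SD, n = 6 and 4), with 1 non-transgenic sample above the level, at least 52.3-fold higher (limma adjusted p = 4.61e-09). Id2, an inhibitor of helix-loop-helix factors, averaged 8.70 ± 0.34 in RNAi-transgenic and 5.62 ± 0.38 in non-transgenic oocytes (SD, n = 6 and 4, limma adjusted p = 7.60e-07). Sox2, a factor of pluripotent and trophoblast stem cells, was at least 11.3-fold and Plac1, a placental gene, at least 7.36-fold higher (limma adjusted p = 1.91e-06 and 2.82e-05). Lgals3 and Plac1, with 1 and 2 non-transgenic samples above the level, passed the filter mainly through RNAi-transgenic samples. Their calls add no independent support. Rbpj, the DNA-binding protein of Notch signalling, fell by 1.72 and Spint1, a protease inhibitor, fell by 0.73 (limma adjusted p = 0.00113 and 0.0124). Fgfr2, the receptor through which FGF4 sustains trophoblast stem cells, rose by 0.51 (limma adjusted p = 0.00134). The keratin gene Krt8 averaged 8.33 in RNAi-transgenic and 5.22 in non-transgenic oocytes, at least 8.18-fold higher (limma adjusted p = 3.39e-05). The keratin genes Krt7 and Krt18, and Ascl2, Dlx3 and Bmp4, were below the level on all arrays. Fgfr2 and the genes named after it were chosen after their values were seen. The Spint1 call was lost within the samples numbered 7 to 13 (limma adjusted p = 0.200) and that of Fgfr2 within those numbered 1 to 6 (0.0528).

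**Figure D3:**
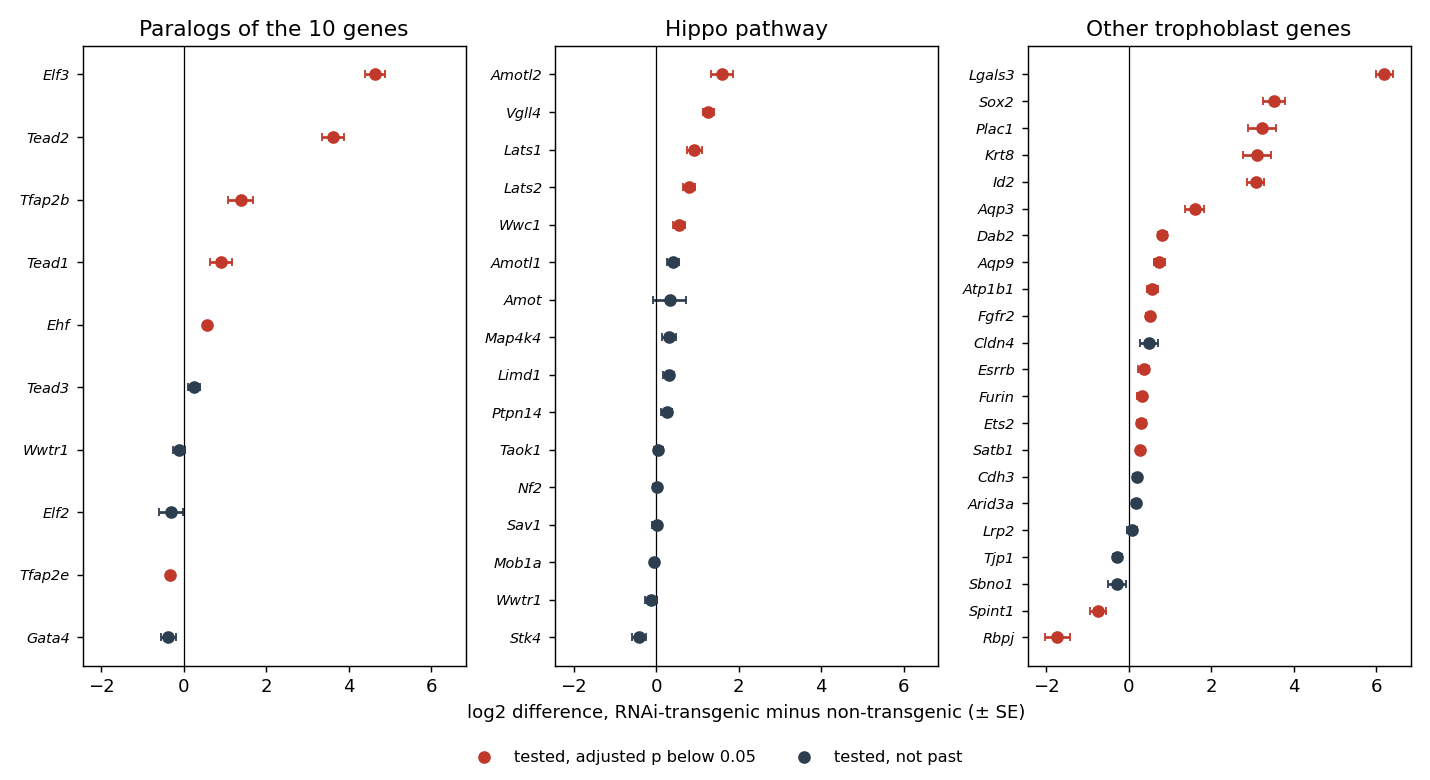
Log2 difference of RNAi-transgenic minus non-transgenic samples ± SE (horizontal axis) for the tested genes of 3 lists, the paralogs (10 genes), the Hippo pathway (16 genes) and other trophoblast genes (22 genes), in red where the limma adjusted p was below 0.05. Elf3 and Tead2 lead the paralogs and Lgals3 the trophoblast genes, while 5 of the 16 Hippo pathway genes are red.

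Markers of other ovarian cells were set beside these genes, since such cells lie next to the oocyte in the ovary. Their counts stand against 18.9% higher and 18.3% lower among all genes tested. Of 18 granulosa and cumulus markers with a probe set, 8 were tested, 2 rose (Fshr by 1.24 and Cyp11a1 at least 2.95-fold) and 0 fell in limma, with 1 lower without non-transgenic replicate 7. Their summed intensity was 1769 to 2863 in RNAi-transgenic and 1823 to 2046 in non-transgenic samples. Amh, Amhr2, Nr5a1 and Star were below the filter level on all arrays. Nr5a2, Gja1, Gata4 and Kitl were above the level on all arrays and did not pass. They averaged 9.87, 8.56, 7.61 and 6.78 in RNAi-transgenic and 9.94, 8.01, 7.98 and 6.72 in non-transgenic oocytes. Of 15 markers of stroma and vessels, 7 were tested, 4 rose and 1 fell, with a summed intensity of 939 to 1220 in RNAi-transgenic and 742 to 850 in non-transgenic samples. Kdr rose by 1.19, Col4a2 by 1.13, Postn by 0.81 and Dcn at least 2.15-fold, while Col1a2, Col3a1, Pecam1 and Cdh5 were below the level on all arrays. Col4a1 and Tek were above the level on all arrays and did not pass, at 7.80 and 6.89 in RNAi-transgenic and 7.86 and 6.80 in non-transgenic oocytes. Of 10 blood and immune markers, 3 were tested, 1 rose (Laptm5 by 1.06) and 1 fell (Srgn by 0.56). Their summed intensity was 2807 to 4470 in RNAi-transgenic and 3409 to 4248 in non-transgenic samples. Ptprc was below the level on all arrays, while H2-Aa was at 9.73 in RNAi-transgenic and 9.40 in non-transgenic oocytes and did not pass. The Fshr call was lost within the samples numbered 1 to 6 and those numbered 7 to 13 (limma adjusted p = 0.0528 and 0.0635), and in the higher range 0 granulosa and cumulus markers rose. Within the samples numbered 1 to 6 the calls of Dcn, Postn, Laptm5 and Srgn were lost (limma adjusted p = 0.0667, 0.158, 0.210 and 0.0701). The Cyp11a1 call ended without non-transgenic replicate 8 (limma adjusted p = 0.0682), and that of Laptm5 without non-transgenic replicate 2, 7 or 8 (limma adjusted p from 0.0571 to 0.0691). The marker that fell in the stroma list, Acta2, did not pass when RNAi-transgenic replicate 4, 5, 11, 12 or 13 or non-transgenic replicate 1 or 8 was left out (limma adjusted p from 0.0597 to 0.104). The part of these markers in the differences of the 10 genes was not tested.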

How the data were processed

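The authors deposited 1 intensity per probe set and array, on a linear scale and all above 0, made with GCRMA per the submitters' processing notes (no version stated), which corrects background, normalizes arrays and summarises probes. It shrinks dim values to a shared floor, and no detection call is given. Log2 values were taken with no further normalization. Of 45101 probe sets, 34958 had 1 gene, 932 several and 64 were controls, and 34754 were matched by gene number to RefSeq GRCm38.p6 for names. Probe sets above log2 5 on at least 4 of 10 arrays were kept (18582), then the brightest per gene (10590). Groups were compared with limma 3.58.1 (lmFit, eBayes with a trend) in R 4.3.3 with Benjamini-Hochberg adjustment. Where samples of the dimmer group were below log2 5, they were set to it and the fold is given as at least that large. All 10 genes are named. Of the other lists up to 4 higher and 4 lower genes by adjusted p were to be named, up to 3 for markers, and for Cdx2 the 5 genes of nearest profile. Further genes of these lists, called or not, were named after their values were seen. The genes, lists and tests were chosen with earlier results of these data known. Alternatives were other filters, scalings, offsets, variance models, ranges of replicate numbers and each sample left out. The fit was tested on simulated data. Figures were drawn with matplotlib 3.10.9. The number of arrays limits the precision.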

Additional observations from a re-analysis of the deposited data

Results flagged for a closer look

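Of 44 groups of values examined (22 probe sets in both groups, Bnc1 included), 2 held a sample far from the others, and chance gives about 1 in 20. The dimmer Yap1 probe set was at log2 7.70 in RNAi-transgenic replicate 4, below the other RNAi-transgenic samples. The dimmer Hand1 probe set was at log2 1.49 in RNAi-transgenic replicate 12, far below the filter level.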

How the results depend on the processing

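The count of 5 higher genes of the group was between 4 and 5 over 23 alternatives, and 0 were lower in each. It was 4 with the filter at log2 7, where Cdx2 was not tested, and within the samples numbered 7 to 13, where Cdx2 did not pass. Without any 1 sample the count stayed at 5, and the highest limma adjusted p of Cdx2 was then 0.00585. In these fits and those of the replicate ranges, the genes tested and their probe sets stayed those chosen on all samples. Elf5 and Cdx2 had entered only or mainly through RNAi-transgenic samples, so their calls in these fits add no independent support. Among all genes, 1207 were higher and 706 lower within the samples numbered 1 to 6, and 1241 and 1023 within those numbered 7 to 13, where fewer samples were used. At an adjusted p below 0.01, 1399 were higher and 1102 lower. The balance of 1998 higher and 1942 lower genes turned with the scaling, to 1906 higher and 2250 lower after quantile normalization and 1984 higher and 1454 lower after median centring. Leaving out 1 sample gave 1778 to 1954 higher and 1564 to 1913 lower genes. The Elf5 difference was 3.36 on the log2(value + 16) scale, which lowers the size for dim genes by construction, and Tfap2c ranged from 1.26 to 1.75. No paired analysis was possible because the groups share no replicate number. Dim genes are limited by the signal over background.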

Other observations

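The promoter windows of the group differed in base composition. The first Elf5 window held 2 CpG pairs and the second 8, the Cdx2 window held 13, the Gata3 window 19 and both Tfap2a windows 10. The Yap1 window held 44 and the Gata2 windows 22 and 24, against a median of 6 over all 32851 windows, of which 17.9% held at least 20. The ETS letters AGGAAG, which 29.5% of all windows hold on either strand, were found in the windows of Cdx2, Tfap2a (both) and Yap1, and the CDX letters TTTATG (10.8% of all windows) in the first Tfap2a and the second Elf5 window. The GATA letters AGATAA (9.99% of all windows) were found in none of the 10 windows.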
